A study of Homo sapiens with 15 samples.

Results

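The eye-field transcription factors are a set of genes that switch on together in the part of the early forebrain that becomes the eye, and several of them stay on in retinal progenitors and in glia of the mature retina. The 9 genes described here were PAX6, RAX, SIX3, SIX6, LHX2, SOX2, PAX2, MEIS1 and MEIS2, chosen by symbol out of the 19684 genes in the deposited tables, and the question was which of these retinal identity factors cultured Müller glia keep. Each symbol matched 1 gene identifier. Messenger RNA was measured in 15 libraries of 5 groups, 3 libraries per group, all from the BC1-GFP line, a human induced pluripotent stem cell (hiPSC) line labelled WT that carries a green fluorescent reporter. The groups were undifferentiated hiPSCs (about 2000000 cells per experiment), the neural retina (NR) layers of retinal organoids at day 70 (D70-ROs) and at day 150 (D150-ROs, 5 organoids per experiment), and induced Müller glial cells (iMGCs) at passage 1 (P1) and passage 5 (P5). The iMGCs were grown from dissociated D150-RO NR layers on Matrigel in a medium with fetal bovine serum and were collected on day 5 of the passage, about 1000000 cells per experiment. The methods give 3 independent experiments per group and the description of the whole series gives 2 for hiPSCs and organoids, names a further sequencing company and mentions a correction between batches, so a batch shared within a group and the group itself cannot be told apart, and the p-values may in part measure technical spread. All values come from 1 cell line, and MGCs of a human retina were not analysed here.

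In the eye field, RAX, a paired-type homeodomain factor, is required for the eye to form at all. PAX6, with a paired domain and a homeodomain, is used first in retinal progenitors and later in amacrine, horizontal and ganglion cells. SIX3 and SIX6 are homeodomain factors of the sine oculis family, LHX2 is a LIM-homeodomain factor needed for the optic vesicle and later for Müller glia, and SOX2 is an HMG-box factor of pluripotent cells, of retinal progenitors and of Müller glia. PAX2 marks the optic stalk and the astrocytes of the optic nerve head. MEIS1 and MEIS2 are homeodomain cofactors of the TALE class that bind DNA together with PBX proteins.

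On GENCODE 29 (GRCh38) PAX6 (ENSG00000007372) lies on chromosome 11 from 31784779 to 31818062 (minus strand), RAX (ENSG00000134438) on chromosome 18 from 59267035 to 59274086 (minus) and SIX3 (ENSG00000138083) on chromosome 2 from 44941898 to 44946077 (plus). SIX6 (ENSG00000184302) lies on chromosome 14 from 60508951 to 60512850 (plus), LHX2 (ENSG00000106689) on chromosome 9 from 124001670 to 124033301 (plus) and SOX2 (ENSG00000181449) on chromosome 3 from 181711924 to 181714436 (plus). PAX2 (ENSG00000075891) lies on chromosome 10 from 100735603 to 100829941 (plus), MEIS1 (ENSG00000143995) on chromosome 2 from 66433452 to 66573869 (plus) and MEIS2 (ENSG00000134138) on chromosome 15 from 36889204 to 37101299 (minus). Whether the libraries kept strand is not given in the sources used here, so reads of a member and of a gene on the opposite strand that overlaps it cannot be told apart. In the deposited tables such genes were ELP4 and AL035078.4, whose exons overlap those of PAX6, and C14orf39, which overlaps SIX6 without sharing exonic bases.

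RefSeq start sites (GRCh38.p14) gave promoter windows of 250 bases before the start for 8 of the 9 genes, 18 windows in all. SIX3 was the gene without one. The windows of RAX and SOX2 are shown because these genes ended at or near 0 in iMGCs, and that of MEIS1 because it kept a measurable level there. All 3 windows run 5′ to 3′ on the strand of the gene, the RAX and MEIS1 windows hold no exonic base of their gene and the SOX2 window holds 1. Capitals mark matches, on either strand, to 4 short motifs: TAATTA (homeodomain core), ACAAAG (SOX core), TGACAG (MEIS/TGIF core) and TGATAC (sine oculis core).
RAX, chr18:59273455-59273704, minus strand: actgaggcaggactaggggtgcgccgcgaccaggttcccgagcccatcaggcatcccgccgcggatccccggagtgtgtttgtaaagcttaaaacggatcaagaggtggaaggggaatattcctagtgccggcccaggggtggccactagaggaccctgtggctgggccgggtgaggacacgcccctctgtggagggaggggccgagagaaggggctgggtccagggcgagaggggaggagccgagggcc
SOX2, chr3:181711675-181711924, plus strand: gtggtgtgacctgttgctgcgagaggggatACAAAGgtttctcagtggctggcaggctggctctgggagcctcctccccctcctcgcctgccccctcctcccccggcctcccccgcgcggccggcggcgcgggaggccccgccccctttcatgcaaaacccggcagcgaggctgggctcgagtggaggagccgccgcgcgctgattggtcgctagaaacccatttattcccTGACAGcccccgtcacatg
MEIS1, chr2:66434875-66435124, plus strand: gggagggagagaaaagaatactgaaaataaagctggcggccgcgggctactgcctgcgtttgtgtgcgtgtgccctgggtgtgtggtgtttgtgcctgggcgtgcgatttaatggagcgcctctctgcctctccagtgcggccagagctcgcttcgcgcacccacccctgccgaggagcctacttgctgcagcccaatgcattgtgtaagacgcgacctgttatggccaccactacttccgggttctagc
The SOX2 window held 1 SOX core, 220 bases before the start, and 1 MEIS/TGIF core, 19 bases before it. The RAX and MEIS1 windows held none of the 4 motifs. Of all 35116 RefSeq windows of this length, 13.7% held the SOX core, 13.0% the MEIS/TGIF core, 4.35% the homeodomain core and 3.80% the sine oculis core, and no 2 matches overlapped in the 18 windows. GC content was 66.4% for RAX, 68.8% for SOX2 and 59.6% for MEIS1, beside a median of 58.0% over all windows. These matches describe letters in the windows and are no evidence of binding.

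Expression was compared in 2 units. FPKM, the fragments mapped to a gene scaled for its transcript length and for the mapped fragments of the library, was the authors' value and allows levels of different genes to be set side by side. Fold changes came from the expected counts, rounded and scaled with TMM factors in edgeR's quasi-likelihood test, 2 groups at a time, over genes with at least 1 FPKM in at least 3 of the 6 libraries. A gene was called when its Benjamini-Hochberg adjusted p over all genes tested was under 0.05 and its change at least 2-fold. Library totals lay between 11349600 and 20398755 expected counts. The 10 most abundant genes took 14.6% to 16.5% of the counts in iMGC libraries and 4.71% to 5.09% in D150-ROs, and without TMM factors the median gene was 0.69 lower on the log2 scale in P1 iMGCs than in D150-ROs and 0.75 lower in P5 iMGCs, so the share of a level that an iMGC kept is lower in FPKM than on the TMM scale.

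**Figure D1:**
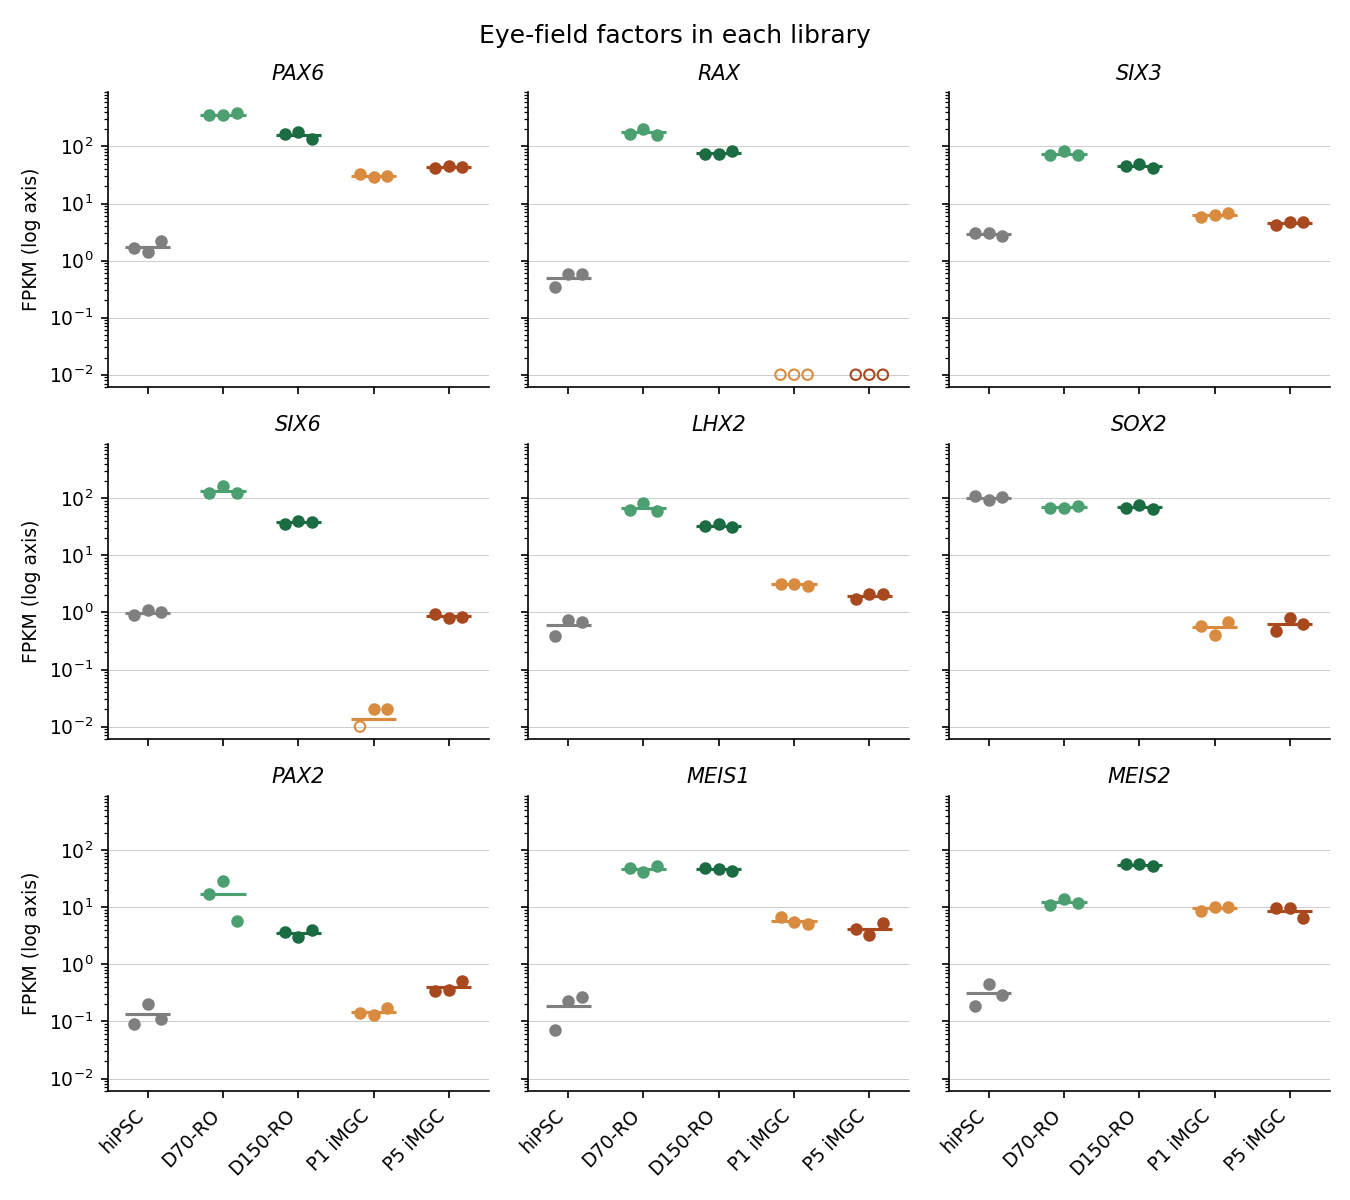
FPKM of each of the 9 eye-field genes (log axis) in each of the 15 libraries by group, with 1 point per library and a line at the group mean. Open circles on the lowest gridline stand for libraries listed at 0. The plot shows that RAX had 0 FPKM in all 6 iMGC libraries and that PAX6 lay between 28.8 and 45.8 there.

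Day-70 organoids held all 9 genes, and 8 of them were higher than in hiPSCs by between 23.2-fold (SIX3) and 276-fold (RAX). The exception was SOX2, the gene the pluripotent cells already used. Of all 12954 genes tested in this comparison, 22.5% were called higher. The median log2 fold change of the 9 genes was 6.96, beside 0.02 over all genes tested. RAX, LHX2, PAX2, MEIS1 and MEIS2 had under 1 FPKM in every hiPSC library and passed the filter on low values only through D70-ROs, so they could only be found higher, and the count of 8 and the median are descriptions. RAX had 0.34, 0.58 and 0.58 FPKM in hiPSCs and 168, 202 and 159 FPKM in D70-ROs. The log2 fold change of RAX was 8.11 ± 0.22 (SE, adjusted p = 4.66e-10 by edgeR). PAX6 had 1.64, 1.42 and 2.18 FPKM in hiPSCs and 349, 357 and 380 FPKM in D70-ROs, where it was the highest of the 9 genes in every library and stood at rank 178 of all 19684 genes by mean FPKM. Its log2 fold change was 7.54 ± 0.17 (SE, adjusted p = 1.68e-10). For all 9 genes the libraries of the groups did not overlap, as for 75.5% of all genes tested.

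Among the other homeodomain genes, SIX6 rose from 0.89, 1.10 and 1.00 FPKM in hiPSCs to 122, 163 and 123 FPKM in D70-ROs. LHX2 rose from 0.38, 0.75 and 0.68 FPKM to 62.3, 83.2 and 59.0 FPKM. SIX3 started higher, at 3.09, 2.99 and 2.74 FPKM in hiPSCs, and reached 71.8, 83.2 and 69.8 FPKM. MEIS1 and MEIS2 both started under 0.5 FPKM, and at day 70 they differed from each other, with 48.8, 40.8 and 52.3 FPKM of MEIS1 and 10.9, 13.9 and 12.0 FPKM of MEIS2. SOX2 fell by 0.67 ± 0.11 on the log2 scale (SE, adjusted p = 1.67e-04), which is under the 2-fold limit, from 108, 92.1 and 105 FPKM in hiPSCs to 67.7, 69.0 and 74.4 FPKM in D70-ROs.

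PAX2 was the gene whose day-70 libraries spread the most. It had 0.09, 0.20 and 0.11 FPKM in hiPSCs and 16.9, 29.3 and 5.67 FPKM in D70-ROs (17.3 ± 11.8 FPKM, SD, n = 3). Its log2 fold change of 6.84 ± 0.68 (SE, adjusted p = 3.80e-06) became 6.11 without D70-RO replicate 2, which had the highest PAX2 level and the fewest counts of all libraries. The lowest D70-RO library still lay above every D150-RO library.

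Between day 70 and day 150 the set changed its makeup. PAX6, RAX, SIX6, LHX2 and PAX2 fell, MEIS2 rose, and SIX3, SOX2 and MEIS1 were not called. Of the 12855 genes tested, 16.7% were called lower and 16.6% higher. SIX6 fell most steeply of the genes with even replicates, to 35.1, 39.7 and 38.7 FPKM in D150-ROs, and its log2 fold change was −2.08 ± 0.14 (SE, adjusted p = 2.94e-06). RAX fell to 72.6, 74.6 and 82.2 FPKM (log2 fold change −1.41 ± 0.12, adjusted p = 8.69e-06) and PAX6 to 167, 176 and 135 FPKM (−1.31 ± 0.11, adjusted p = 1.16e-05). The D150-RO libraries lay below all D70-RO libraries for these 3 genes, and groups did not overlap for 77.2% of all genes tested. LHX2 fell to 33.4, 35.6 and 30.9 FPKM, by 1.28 ± 0.14 on the log2 scale (SE, adjusted p = 3.97e-05). PAX2 fell to 3.76, 3.03 and 3.93 FPKM, with a log2 fold change of −2.81 ± 0.54 (SE, adjusted p = 0.00126) that became −2.10 without D70-RO replicate 2.

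MEIS2 went the other way, from 10.9 to 13.9 FPKM at day 70 to 57.2, 56.6 and 53.5 FPKM at day 150, a log2 fold change of 1.90 ± 0.12 (SE, adjusted p = 1.58e-06). MEIS1 had 48.7, 46.5 and 43.1 FPKM at day 150, and its ranges at both days overlapped (log2 fold change −0.12, 95% interval −0.38 to 0.13, adjusted p = 0.340). SOX2 ranges overlapped too, with 67.2, 77.0 and 65.4 FPKM at day 150 and a log2 fold change of −0.23 (95% interval −0.44 to −0.02, adjusted p = 0.0448) that was far from 2-fold. SIX3 was lower at day 150 without overlap, at 44.9, 48.8 and 42.2 FPKM, and its log2 fold change of −0.95 ± 0.11 (SE, adjusted p = 6.21e-05) was just under the 2-fold limit. SIX3 was called lower under upper-quartile scaling (−1.05) and when D70-RO replicate 1, D70-RO replicate 3 (−1.02) or D150-RO replicate 2 (−1.01) was left out, each just past the limit. These are bulk samples, in which fewer cells of a type and less RNA per cell cannot be told apart. Between the same days the summed level of 6 photoreceptor markers went from 123 to 128 FPKM per library to 843 to 967 FPKM, and that of 11 markers of PAX6-positive neurons from 126 to 138 FPKM to 47.6 to 74.9 FPKM. Of these 11 markers, 4 were called higher and 5 lower, where 16.6% and 16.7% of all genes tested were. POU4F1, POU4F2 and ELAVL4 had under 1 FPKM in every D150-RO library and TFAP2B in every D70-RO library. The direction of those genes was therefore set by the filter. By group mean ATOH7 went from 69.6 to 3.12 FPKM, and TFAP2A from 2.89 to 24.2 FPKM. The part of these cell types in the result was not tested. Without TMM factors the share of called genes that were higher at day 150 was 63.9% in place of 49.8%, and the same 5 members were called lower and MEIS2 higher.

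**Figure D2:**
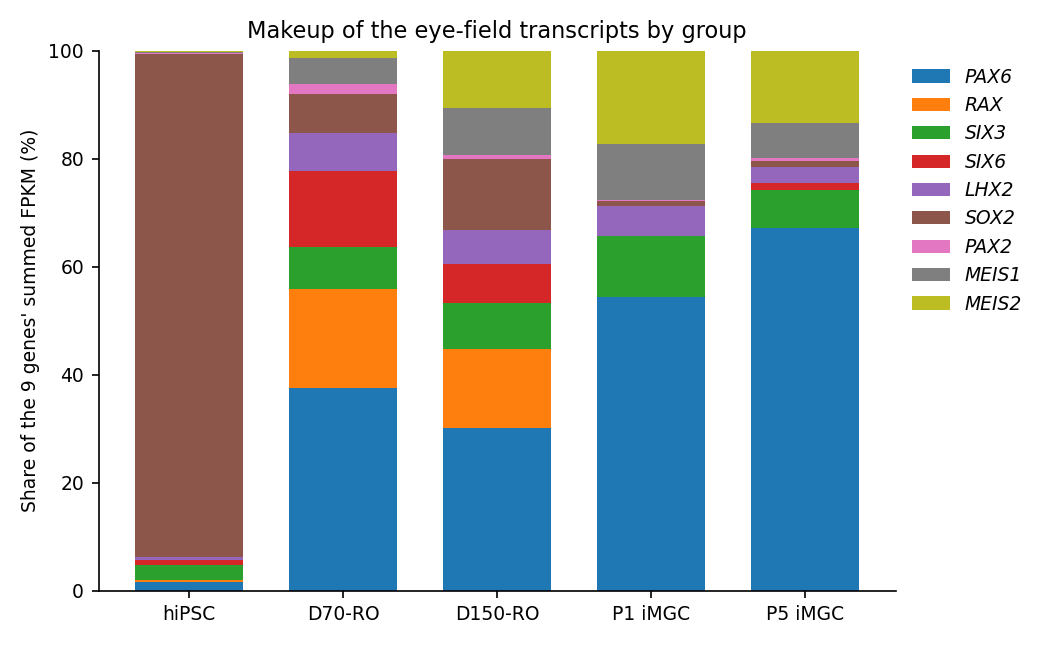
Share of each gene in the summed FPKM of the 9 eye-field genes (percent, mean of 3 libraries) for each group, as stacked bars. SOX2 made up 93.2% in hiPSCs, while PAX6 made up 30.1% in D150-ROs, 54.4% in P1 iMGCs and 67.2% in P5 iMGCs.

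The summed FPKM of the 9 genes was 917 to 1042 in D70-ROs, 494 to 558 in D150-ROs, 54.9 to 58.3 in P1 iMGCs and 63.0 to 67.8 in P5 iMGCs. In hiPSCs it was 99.8 to 115, of which SOX2 alone made up 92.3% to 94.2%. In D150-ROs PAX6 held 27.2% to 31.6% of the sum, RAX 13.4% to 16.6%, SOX2 12.7% to 13.8%, MEIS2 10.1% to 10.8%, and the remaining 5 genes the rest. In iMGCs PAX6 held 52.5% to 57.0% at P1 and 65.7% to 68.3% at P5. SOX2 held 0.747% to 1.22% at P1 and 0.746% to 1.19% at P5. The summed level thus dropped from D70-ROs to D150-ROs and again to P1 iMGCs, and was higher at P5 than at P1 without overlap. By group mean PAX6 went from 30.7 FPKM at P1 to 43.9 FPKM at P5. MEIS2, SIX3, MEIS1 and LHX2 had lower means at P5, and RAX stayed at 0. SIX6, SOX2 and PAX2 had higher means at P5, each under 1 FPKM. The mixture that remained in iMGCs was mainly PAX6, MEIS2, SIX3 and MEIS1, with LHX2 at 3.02% of the sum at P5.

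In P1 iMGCs all 9 genes were lower than in D150-ROs, the organoid age they were grown from, but the loss was uneven. The sample labels link no iMGC library to a sequenced organoid library. PAX6, MEIS2, SIX3 and MEIS1 kept between 19.1% and 31.0% of the D150-RO level on the TMM scale, LHX2 kept 14.8%, PAX2 7.59% and SOX2 1.25%, and SIX6 and RAX were near or at 0. Of the 12896 genes tested, 24.1% were called lower, and the median log2 fold change was −2.76 for the 9 genes and −0.05 over all genes tested. RAX, SIX6, SOX2 and PAX2 passed the filter on low values only through their D150-RO libraries, so they could only be found lower, and the count of 9 and the median are descriptions.

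PAX6 was the most abundant and had the largest share kept, although the 95% interval of that share overlapped that of MEIS2. It had 33.2, 28.8 and 29.9 FPKM in P1 iMGCs, beside 135 to 176 FPKM in D150-ROs. The groups did not overlap, as for 87.9% of all genes tested, and the log2 fold change was −1.69 ± 0.09 (SE, adjusted p = 2.79e-11), which left 31.0% of the level (95% interval 27.3% to 35.1%), or 19.2% in FPKM. By mean FPKM 89.3% of all genes lay below PAX6 in P1 iMGCs and 98.6% in D150-ROs. The 11 markers of PAX6-positive retinal neurons summed to 0.93 to 1.12 FPKM in P1 libraries, with POU4F1, POU4F2, ISL1, TFAP2B and ELAVL4 listed at 0 in all 3. ELP4, the neighbour that shares exonic bases with PAX6 on the other strand, had 7.99 to 8.70 FPKM there, and AL035078.4 had 0 to 7.61 FPKM.

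MEIS2 had 8.53, 10.3 and 10.2 FPKM in P1 iMGCs, with a log2 fold change of −1.83 ± 0.07 (SE, adjusted p = 4.96e-13). MEIS1 had 6.75, 5.64 and 5.12 FPKM and a log2 fold change of −2.39 ± 0.07 (SE, adjusted p = 1.35e-14). Both TALE factors therefore remained at measurable levels, and on the TMM scale the share kept was 28.0% for MEIS2 (95% interval 25.4% to 31.0%) and 19.1% for MEIS1 (17.3% to 21.1%). SIX3 had 5.85, 6.40 and 6.77 FPKM and kept 21.9% (19.5% to 24.6%). LHX2 had 3.19, 3.15 and 2.96 FPKM and kept 14.8% (13.0% to 16.8%). For these 4 genes every P1 library lay below every D150-RO library.

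SOX2, a factor of mature Müller glia as well as of progenitors, was at 0.57, 0.41 and 0.68 FPKM in P1 iMGCs, from 17 to 30 counts per library, beside 65.4 to 77.0 FPKM in D150-ROs. The log2 fold change was −6.33 ± 0.12 (SE, adjusted p = 1.72e-16), an 80.2-fold fall. PAX2 had 0.14, 0.13 and 0.17 FPKM, from 7 to 9 counts, and was 13.2-fold lower (95% interval 9.38 to 18.5). SIX6 had 0, 1 and 1 counts in the P1 libraries against 5096 in the D150-ROs together, so the ratio of counts was 1696-fold with a 95% exact interval of 469 to 14010 that covers counting error only. RAX had no count in any of the 3 P1 libraries against 10383 counts in the D150-ROs, which made it at least 2303-fold lower when 3 counts over the group are allowed. Those 3 counts would be 0.0213 FPKM.

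**Figure D3:**
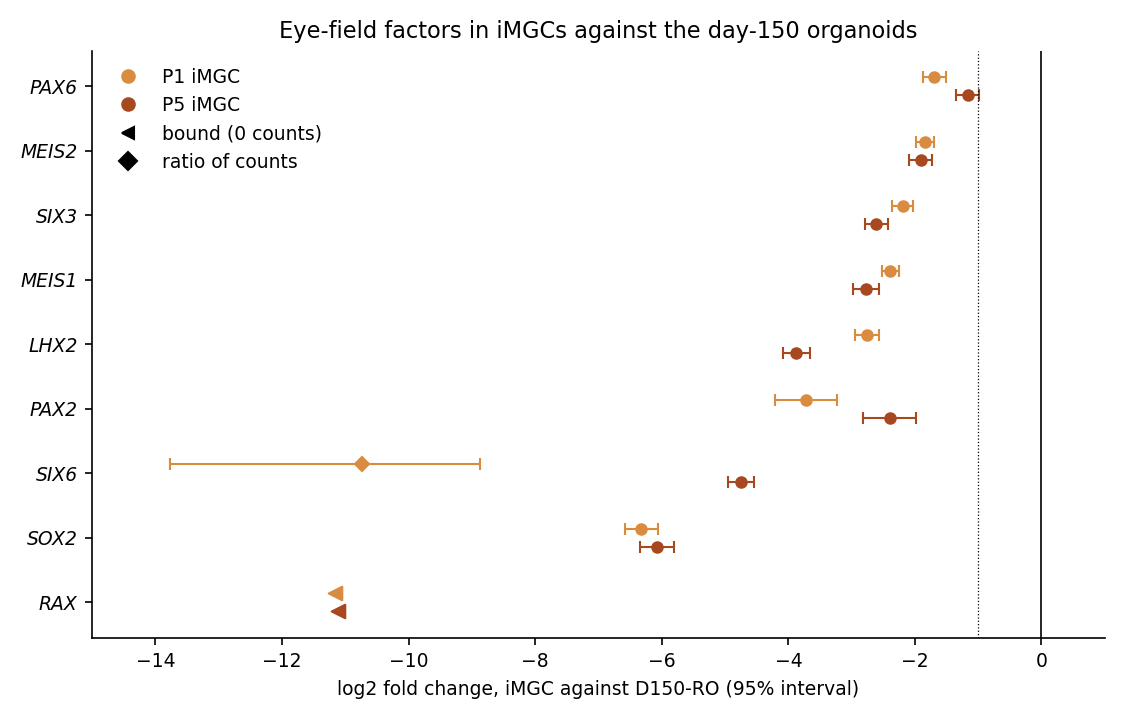
Log2 fold change of each eye-field gene in P1 and P5 iMGCs against D150-ROs, with 95% intervals. Circles are edgeR estimates, the diamond is the ratio of summed counts for SIX6 at P1 with its exact counting interval, triangles are bounds for RAX, which had no counts in iMGCs, and the dotted line marks a 2-fold fall. PAX6 lies closest to 0 at both passages, at −1.69 for P1 and −1.17 for P5.

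In P5 iMGCs all 9 genes were again called lower than in D150-ROs, where 23.9% of 12933 genes tested were, and this comparison uses the same 3 D150-RO libraries as that of P1. RAX, SIX6, SOX2 and PAX2 had under 1 FPKM in every P5 library, so here too they could only be found lower and the count is a description. PAX6 had 41.4, 45.8 and 44.5 FPKM at P5, 44.5% of the D150-RO level (95% interval 39.4% to 50.3%) on the TMM scale and 27.5% in FPKM. Its log2 fold change was −1.17 ± 0.08 (SE, adjusted p = 1.21e-09). No member overlapped between P5 iMGCs and D150-ROs, nor did 88.5% of all genes tested. MEIS2 had 9.78, 9.85 and 6.55 FPKM and kept 26.7%, SIX3 had 4.12, 4.77 and 4.84 FPKM and kept 16.4%, and MEIS1 had 4.17, 3.31 and 5.24 FPKM and kept 14.6%. LHX2 had 1.75, 2.10 and 2.07 FPKM and kept 6.83%. PAX2 had 0.34, 0.35 and 0.51 FPKM, from 18 to 20 counts per library, and kept 19.0% (95% interval 14.2% to 25.4%). That interval held the shares of SIX3 and MEIS1 at P5, so PAX2 was not separable from them. Its share stood above that of LHX2 at P5, although its level was under 1 FPKM. At P1 the PAX2 share stood below those of SIX3, MEIS1 and LHX2. SOX2 stayed low at 0.47, 0.81 and 0.63 FPKM (67.5-fold lower), and SIX6 had 0.95, 0.81 and 0.83 FPKM (26.9-fold lower, 95% interval 23.2 to 31.0). RAX again had no count in 3 libraries and was at least 2214-fold lower.

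The cells themselves carried only part of the Müller glia marker list. Of its 10 genes, 7 reached 1 FPKM in all 3 P1 libraries and 8 in all 3 P5 libraries. Pluripotent cells had 8 such genes too, D150-ROs 10 and D70-ROs 9, so this count does not set iMGCs apart from pluripotent cells. Against D150-ROs, 3 of the 10 were called higher and 6 lower at P1, where 20.0% and 24.1% of all genes tested were. RLBP1, CA2 and SLC1A3 had under 1 FPKM in every P1 library, so they could only be found lower. By group mean GLUL went from 100 FPKM in D150-ROs to 13.4 FPKM at P1. CRYAB went from 10.9 to 30.2 FPKM and APOE from 13.6 to 37.2 FPKM. VIM, an intermediate filament gene, stood at 2160 ± 20.0 FPKM (SD, n = 3) at P1 and 2858 ± 50.6 FPKM at P5, beside 1065 ± 76.0 FPKM in D150-ROs. SOX9, a glial transcription factor, was lower in iMGCs, at 5.21 ± 0.25 FPKM at P1 and 3.59 ± 0.16 FPKM at P5 beside 42.6 ± 3.81 FPKM in D150-ROs. RLBP1, the retinaldehyde binding protein of Müller glia, had 0 counts at P1 and 1 count over the P5 libraries. The 9 mesenchymal markers summed to 12460 to 13130 FPKM per P1 library and 13410 to 13970 FPKM per P5 library, beside 38.4 to 42.3 FPKM in D150-ROs, and 8 of 8 tested were called higher at P1, where 20.0% of all genes tested were. COL3A1 and TWIST1 had under 1 FPKM in every D150-RO library, so they could only be found higher. FN1, a matrix protein gene, was the highest of the 9, and PRRX1, a mesenchymal homeodomain gene, the lowest, at 0 to 0.03 FPKM at P1 and 1.48 to 2.11 FPKM at P5. The photoreceptor markers summed to at most 0.35 FPKM at P1 and 0.56 FPKM at P5, with CRX and PDE6H at 0 in all 6 libraries. The part of these cell-type differences in the levels of the eye-field genes was not tested.

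The direct comparison of P5 with P1 covered the 5 genes that passed the filter. LHX2 was called lower at P5, with a log2 fold change of −1.11 ± 0.17 (SE, adjusted p = 1.08e-05), where 0.977% of 11366 genes tested were called lower. That call depended on the unit and on the 2-fold limit. By mean FPKM LHX2 at P5 was 63.7% of its P1 level (1.97 beside 3.10 FPKM), and by edgeR on the counts 46.4%. Limma on log2(FPKM + 1) gave −0.47 with an adjusted p of 0.0065, which was under the 2-fold limit. PAX6 was higher at P5 by 0.53 ± 0.05 on the log2 scale (SE, adjusted p = 1.12e-08), a 1.45-fold difference (95% interval 1.34 to 1.56) that was under the 2-fold limit, and the libraries of both passages did not overlap, which held for 39.5% of all genes tested. PAX6 held 3431 expected counts over the P1 libraries and 4747 over the P5 libraries, while AL035078.4, which overlaps its exons, held 184 and 995, and the part of its reads in the PAX6 difference was not tested. SIX3 was lower at P5 by 0.41 ± 0.10 (SE, adjusted p = 0.00357) without overlap and MEIS1 by 0.38 ± 0.11 (SE, adjusted p = 0.00793) with overlap, both under 2-fold. MEIS2 differed by −0.06 (95% interval −0.25 to 0.12, adjusted p = 0.643), with overlapping ranges.

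The other 4 genes lay under the filter at both passages. SIX6 reappeared at a low level, from 0, 1 and 1 counts at P1 to 47, 39 and 35 counts at P5, a ratio of 63.2 with a 95% exact counting interval of 17.1 to 528. With no filter on low values edgeR called SIX6 higher at P5 (adjusted p = 2.00e-17), together with PAX2 (log2 fold change 1.33, adjusted p = 0.0190). PAX2 had 7 to 9 counts per library at P1 and 18 to 20 at P5. C14orf39, which overlaps SIX6 on the other strand, had 44 counts over the P1 libraries and 109 over the P5 libraries, and its part in the SIX6 counts was not tested. SOX2, at 17 to 30 counts per P1 library and 21 to 35 per P5 library, was not distinguishable between passages in that fit (log2 fold change 0.26, adjusted p = 0.597). Both SIX6 and PAX2 stayed under 1 FPKM in every iMGC library.

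**Figure D4:**
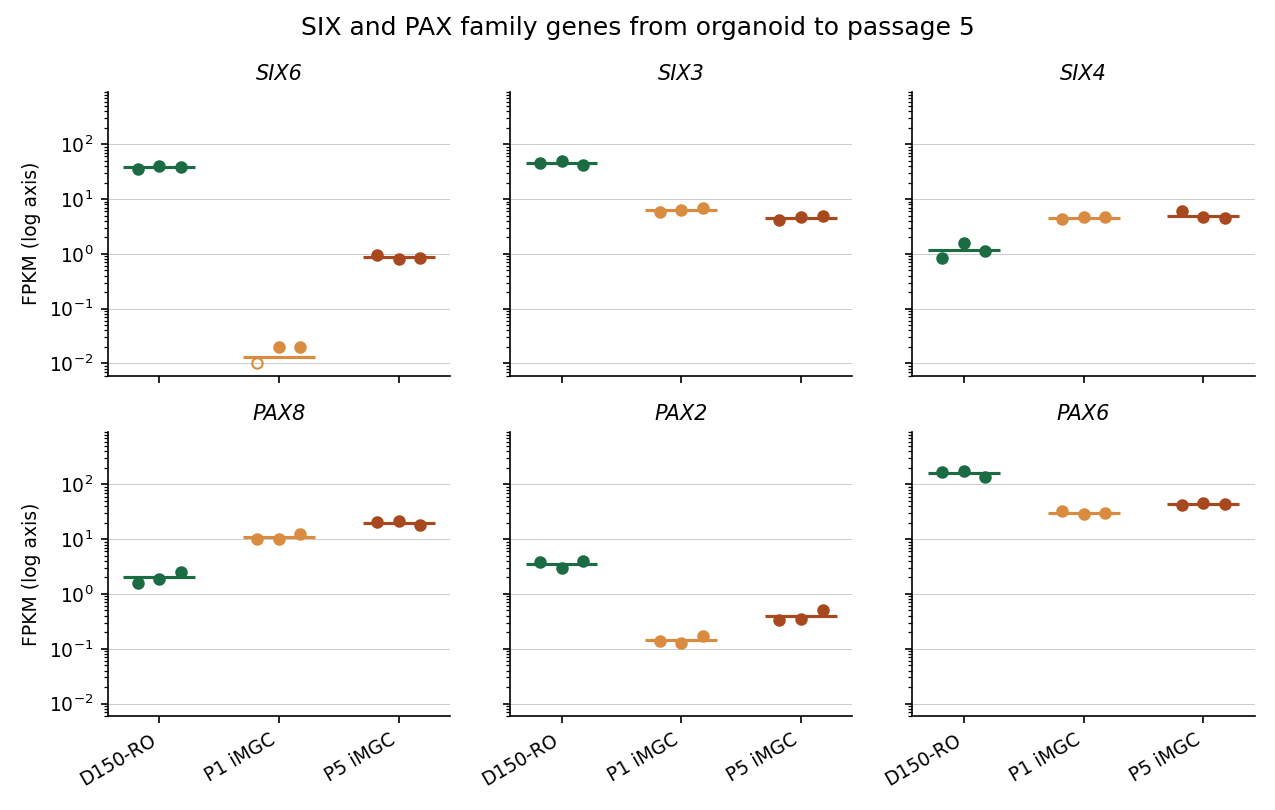
FPKM (log axis) of SIX6, SIX3, SIX4, PAX8, PAX2 and PAX6 in each D150-RO, P1 iMGC and P5 iMGC library, with lines at group means and an open circle on the lowest gridline for a library listed at 0. SIX6 lay between 0 and 0.02 FPKM in P1 iMGCs and between 0.81 and 0.95 FPKM in P5 iMGCs, and PAX8 stepped up at both passages.

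Set against hiPSCs, the iMGCs had a different subset of the genes. PAX6, MEIS1, MEIS2 and LHX2 were called higher than in hiPSCs at both passages, SIX3 at P1, and SOX2 lower at both. MEIS1, MEIS2 and LHX2 had under 1 FPKM in every hiPSC library and SOX2 in every iMGC library, so the direction of these 4 was set by the filter. Of the genes tested against hiPSCs, 26.1% were called higher and 29.7% lower at P1, and 26.9% and 29.3% at P5, and both comparisons share the 3 hiPSC libraries. Of all genes tested, 86.0% had no overlap between groups at P1 and 86.6% at P5. PAX6 was 23.2-fold higher than in hiPSCs at P1 (95% interval 18.8 to 28.6) and 33.7-fold higher at P5 (27.5 to 41.2). MEIS2 was 36.9-fold and 35.4-fold higher, and MEIS1 37.1-fold and 28.7-fold. LHX2 was 8.76-fold higher at P1 and 4.09-fold at P5. SIX3 was 2.61-fold higher at P1, and its 1.97-fold difference at P5 (95% interval 1.60 to 2.44) missed the 2-fold limit by little and was called without hiPSC replicate 1 (log2 fold change 1.01), hiPSC replicate 2 (1.02) or P5 iMGC replicate 1 (1.04). SOX2 was 150-fold lower at P1 and 125-fold lower at P5.

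RAX and SIX6 were lower in P1 iMGCs than in hiPSCs, where both were barely present. RAX had 95 counts over the 3 hiPSC libraries and none in iMGCs, at least 22.0-fold lower at P1 and 21.0-fold lower at P5. SIX6 had 165 counts in hiPSCs, 2 in P1 iMGCs (57.4-fold lower, 95% exact counting interval 15.6 to 478) and 121 in P5 iMGCs, whose range of 0.81 to 0.95 FPKM overlapped that of hiPSCs, 0.89 to 1.10 FPKM. PAX2 ranges in P1 iMGCs and hiPSCs overlapped as well.

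Ordered by mean FPKM, PAX6 ran from D70-ROs through D150-ROs, P5 iMGCs and P1 iMGCs to hiPSCs with no overlap between neighbours. SIX3 and LHX2 had the order D70-RO, D150-RO, P1 iMGC, P5 iMGC and hiPSC, also with no overlap. MEIS1 had this order too, but D70-ROs overlapped with D150-ROs and P1 overlapped with P5 iMGCs. MEIS2 was the gene with D150-ROs on top, followed by D70-ROs, P1 iMGCs and P5 iMGCs, and the iMGC groups overlapped. SOX2 was the gene with hiPSCs on top, and its 2 organoid groups overlapped, as did its 2 iMGC groups. For RAX the order was D70-RO, D150-RO and hiPSC, with all iMGC libraries at 0.

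The genes most like each member over the 15 libraries were found by the root mean square (RMS) difference of log2(FPKM + 1) profiles, each centred on its own mean, among 13915 genes with at least 1 FPKM in at least 3 libraries. These values are descriptions over samples that fall into 5 groups. Among the 3 genes nearest to RAX were TRH, the gene of thyrotropin-releasing hormone (RMS 0.28), and STMN4 (RMS 0.54), both also at 0 FPKM in all iMGC libraries. Nearest to PAX6 was NR2F1, an orphan nuclear receptor (RMS 0.49), followed by MAB21L2 and MEIS1, and NR2F1 was also nearest to MEIS1 (RMS 0.39), followed by KCNK3 and DIRAS2. Nearest to LHX2 were TBX2, a T-box factor of the dorsal retina (RMS 0.32), MGARP and then SIX3. SIX3 was closest to ABAT, BAALC and S1PR3 (RMS 0.26 to 0.30), SIX6 to HMX1, SYT4 and STMN4 (0.44 to 0.51), and SOX2 to MYCN, CA14 and LINGO1 (0.39 to 0.47). PAX2 was closest to LY6H, BRINP2 and FOXN4 (0.40 to 0.51) and MEIS2 to BAZ2B, EPS8 and NDRG1 (0.35 to 0.43). With a pseudocount of 0.1 in place of 1, TRH and STMN4 were again among the 3 nearest to RAX, and 2 of 3 neighbours were the same for PAX6 and MEIS1.

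The wider network was read from 4 lists. Of 12 eye-field partners, 10 were tested between P1 iMGCs and D150-ROs, with 9 called lower and 1 higher, where 24.1% and 20.0% of all genes tested were (median log2 fold change −2.69, beside −0.05 over all genes tested). Most of the 9 had under 1 FPKM in every P1 library and could only be found lower. RAX2, a RAX paralog of photoreceptors, fell from 97.1 ± 6.09 FPKM (SD, n = 3) to 0 counts in all 6 iMGC libraries. MITF, a factor of pigment cells, rose from 1.51 ± 0.13 to 4.17 ± 0.29 FPKM at P1 (log2 fold change 2.16 ± 0.14, SE, adjusted p = 4.51e-10). The 7 pigment epithelium markers, which do not include MITF, summed to 117 to 134 FPKM in D150-ROs and 3.14 to 3.82 FPKM at P1. Most of the D150-RO sum was SERPINF1 (mean 107.5 FPKM), followed by DCT (12.8 FPKM, and 0.01 FPKM at P1). TYR, TYRP1 and RPE65 had at most 0.12 FPKM in any D150-RO library. At P5 against P1, 6 partners were tested and 2 were called higher, where 1.94% of all genes tested were. OTX2, a homeodomain factor of photoreceptors and pigment epithelium, went from 0.28 ± 0.03 to 1.51 ± 0.16 FPKM (log2 fold change 2.92 ± 0.31, adjusted p = 4.67e-08), beside 447 ± 24.9 FPKM in D150-ROs. TBX3, a T-box factor, went from 0.56 ± 0.19 to 1.72 ± 0.18 FPKM (1.70 ± 0.20, adjusted p = 2.04e-07). Both had under 1 FPKM in every P1 library and could only be found higher.

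SIX3, SIX6 and their relatives act with EYA coactivators and DACH cofactors. Of the 10 genes of the SIX-EYA-DACH list, which leaves out the members, 8 were tested at P1 against D150-ROs, with 4 called lower and 2 higher, where 24.1% and 20.0% of all genes tested were. The 4 lower genes had under 1 FPKM in every P1 library and EYA4 in every D150-RO library, so their direction was set by the filter. DACH1 fell from 60.4 ± 1.58 FPKM to 0.07 ± 0.04 FPKM (log2 fold change −9.04 ± 0.12, adjusted p = 2.12e-18), and EYA2 from 8.77 ± 1.57 FPKM to 0 counts. SIX4 rose from 1.18 ± 0.37 to 4.54 ± 0.22 FPKM (2.62 ± 0.11, adjusted p = 4.26e-12) and EYA4 from 0.55 ± 0.09 to 1.92 ± 0.20 FPKM (2.59 ± 0.19, adjusted p = 2.15e-09).

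The 9 MEIS-PBX partners are the TALE factors that pair with MEIS proteins or share their site, and all were tested at P1 against D150-ROs. Of these, 2 were called lower, 1 higher and 6 not called, where 24.1% of all genes tested were called lower and 20.0% higher. PBX4 fell from 1.39 ± 0.33 to 0.05 ± 0.02 FPKM (log2 fold change −4.16 ± 0.51, adjusted p = 1.64e-06). It had under 1 FPKM in every P1 library, so it could only be found lower. PKNOX2, a TALE factor of the PREP family, rose from 2.59 ± 0.25 to 14.5 ± 0.44 FPKM (3.16 ± 0.08, adjusted p = 2.29e-15). Of the 8 tested at P5 against P1, 0 were called by edgeR, DESeq2 or limma, since all changes were under 2-fold, although 6 had an unadjusted p under 0.05 and 5 an adjusted p under 0.05 in edgeR.

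The paralog list held 11 relatives of the PAX, SOX and LHX members, of which 3 were tested at P1 against D150-ROs. PAX8, a relative of PAX2 known from kidney and thyroid, rose from 2.00 ± 0.48 FPKM in D150-ROs to 10.8 ± 1.30 at P1 (log2 fold change 3.19 ± 0.12, adjusted p = 4.31e-13) and 20.1 ± 1.89 FPKM at P5. Against P1 its rise at P5 was 1.00 ± 0.06 (SE, adjusted p = 2.27e-12), right at the 2-fold limit, and it was no longer called when any 1 of 3 libraries was left out (P1 replicate 1 or 2, 0.98, or P5 replicate 2, 0.95). LHX9, the closest relative of LHX2, fell from 15.0 ± 5.42 FPKM to 0.05 ± 0.05 at P1 (−7.67 ± 0.41, adjusted p = 5.31e-11). SOX3, a relative of SOX2, fell from 1.21 ± 0.34 FPKM to 2 counts over the P1 libraries and none over the P5 libraries. LHX9 and SOX3 had under 1 FPKM in every iMGC library, so they could only be found lower.

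The same lists moved in both directions while the organoids formed. At day 70 against hiPSCs, 7 of 9 tested eye-field partners were called higher, where 22.5% of all genes tested were, and of these 7 all but OTX2 had under 1 FPKM in every hiPSC library and could only be found higher. They were led by TBX2 (0.13 ± 0.05 to 75.5 ± 2.58 FPKM) and VAX2, a factor of the ventral retina, which reached 16.8 ± 2.50 FPKM. HESX1, a homeodomain factor of the early anterior forebrain, fell from 6.22 ± 2.46 to 0.57 ± 0.23 FPKM. DACH1 rose to 29.6 ± 3.06 FPKM, and SIX4 fell from 5.83 ± 0.07 to 0.65 ± 0.19 FPKM. DACH1 had under 1 FPKM in every hiPSC library, and HESX1 and SIX4 in every D70-RO library, so their direction was set by the filter. From day 70 to day 150, RAX2 rose from 2.71 ± 0.19 to 97.1 ± 6.09 FPKM (log2 fold change 5.00 ± 0.11, adjusted p = 3.75e-08).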

How the data were processed

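Poly(A) RNA was sequenced from 15 libraries. The authors used HISAT2 for mapping, StringTie for assembly and RSEM for quantification, with versions and genome build not given in the sources used here. The deposited values are unnormalized expected counts from RSEM and FPKM, in which the authors corrected for transcript length and library size. Of the expected counts, 8.21% to 10.1% per library were not whole, and all were rounded before testing. The 6 iMGC columns of a table that gives no passage were not used. DESeq2, named in the methods, was an alternative here.

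The software was R 4.3.3 and edgeR 4.0.16 (quasi-likelihood, TMM factors, 2 groups at a time, no covariates, 7 comparisons), with limma 3.58.1 and DESeq2 1.42.0 as alternatives. SE is the absolute log2 fold change divided by the square root of F. Genes needed at least 1 FPKM in at least 3 of 6 libraries, and all 9 members, the 4 network lists, the 10 marker lists, and at most 2 rising and 2 falling called genes per network list and comparison whose groups did not overlap were reported, except that some genes of the lists are not reported here. The members and lists were chosen with earlier results of these data known, so p-values are adjusted over all genes tested. Intervals are at 95%, and the bound for a gene without counts allows 3 counts over the group. Counting intervals and bounds cover counting error only. Positions are from GENCODE 29 and promoter windows from RefSeq GRCh38.p14. Of promoters, 4 motifs were searched on both strands. Tests were tested on simulated data with 200 changed genes.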

Additional observations from a re-analysis of the deposited data

How the results depend on the processing

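Every member kept its direction in all alternatives and left-out libraries run, with 2 exceptions among genes that were not called. MEIS1 at D150 against D70 was 0.10 without TMM factors in place of −0.12, and MEIS2 at P5 against P1, −0.06 with all libraries, lay between −0.14 and 0.040 with 1 library left out, the latter without P5 iMGC replicate 3. The cause was not tested. The genes called between D150-ROs and D70-ROs numbered 2830 when tested against a 2-fold change, in place of 4276. Between P5 and P1 iMGCs they numbered 694 with no filter, 152 with limma on log2(FPKM + 1) and 161 when tested against a 2-fold change, in place of 332. The members called there numbered 3 with no filter (LHX2, SIX6 and PAX2), and 0 with limma at either pseudocount or when tested against a 2-fold change, in place of 1. Called members that fell under the 2-fold limit with limma on log2(FPKM + 1) in other comparisons were LHX2 at D150 against D70 (−0.997), LHX2 at P5 against hiPSCs (0.90) and SIX3 at P1 against hiPSCs (0.90). Without TMM factors 77.4% of called genes were lower at P1 and 78.0% at P5 against D150-ROs, in place of 54.6% and 53.5%, and 63.2% at P5 against hiPSCs, in place of 52.1%. The nearest-pattern genes of SIX6, SOX2, PAX2 and MEIS2 shared 0 of 3 with a pseudocount of 0.1, and those of SIX3 and LHX2 shared 1 of 3.

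Replicate numbers were not treated as pairs, since the deviations of equally numbered libraries correlated between −0.079 and 0.350. With the replicate number as a block, 5662, 4317, 5691, 5785, 333, 7079 and 7151 genes were called in the 7 comparisons, in place of 5639, 4276, 5686, 5774, 332, 7066 and 7137, and no call of a member changed. Depth limits what can be said of RAX, SIX6, PAX2 and SOX2 in iMGCs, which had at most 47 counts in any library.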

Other observations

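In D70-ROs the 3 libraries that differed in PAX2 differed in the same order in some of the related genes. These genes were chosen after their values were seen, and the 3 libraries allow no test. PAX2 had 16.9, 29.3 and 5.67 FPKM in replicates 1, 2 and 3. PAX8, its relative, had 2.34, 6.33 and 0.78 FPKM in the same libraries, and SOX3, the relative of SOX2, had 4.19, 9.71 and 1.66 FPKM. VAX1, a homeodomain factor of the optic stalk and ventral forebrain, had 0.69, 3.08 and 1.00 FPKM, so replicate 2 was highest there too and replicate 1 was lowest. PAX6 in these libraries had 349, 357 and 380 FPKM and SOX2 67.7, 69.0 and 74.4 FPKM. Replicate 2 also had the lowest total of counts, 11349600.

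In iMGCs VAX1 had 0.55 to 0.62 FPKM at P1 and 0.96 to 1.51 FPKM at P5, where it was the highest of the 6 astrocyte and optic stalk markers, and ALDH1L1 and AQP4 were at 0 in all 6 iMGC libraries. The 5 microglia markers summed to at most 0.94 FPKM in any P1 library and 0.35 FPKM in any P5 library.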
